A study of Mus musculus with 24 samples.

Results

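Cortical fiber cells from lenses severely deficient in glutathione were compared with wild-type fibers by RNA sequencing. The comparison took 8 of the 24 libraries of the series, chosen by their sample titles: 4 of LEGSKO fibers after treatment with buthionine sulfoximine (LEGSKO+BSO) and 4 of wild-type (WT) fibers. All mice had the C57BL/6 background, and the WT mice received no treatment. LEGSKO is known as a knockout of Gclc restricted to the lens. The series describes LEGSKO lenses as mildly and LEGSKO+BSO lenses as severely deficient, and glutathione itself was not analysed here. LEGSKO+BSO thus differed from WT in both genotype and drug, and within this comparison the contributions of genotype and drug cannot be told apart. The other 16 libraries, 4 each of untreated LEGSKO fibers and of lens epithelia of the 3 conditions, were used only where stated. The sources used here do not give age, sex, dose, the Cre driver or pooling of animals. Nothing says that replicate libraries came from different mice, so p-values measure the spread between libraries, which may be technical.

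Glutathione is the main soluble thiol of the lens and keeps crystallins and membrane proteins reduced. Its synthesis starts with glutamate-cysteine ligase, a dimer of the catalytic subunit Gclc and the modifier subunit Gclm, and ends with glutathione synthetase, Gss. BSO inhibits the ligase. Fiber cells form from the epithelium, fill with crystallins and lose their organelles as they mature, and the outer, younger fibers of the cortex still hold RNA. They depend on glutathione made locally or taken up from outside, and its loss leads to cataract.

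The libraries carried the transcripts of fiber cells. All 12 fiber markers were counted in all 8 libraries, among them the water channel Mip (12219 to 23095 CPM, counts per M of scaled total, with M for mega) and the beaded filament protein Bfsp1 (9344 to 22466 CPM). WT Fibers 1 stood apart: crystallins took 50.1% of its counts, against 28.3%, 29.6% and 27.6% in WT Fibers 2 to 4 and 29.4%, 31.3%, 29.0% and 28.5% in LEGSKO+BSO Fibers 1 to 4. With it, the crystallin share was 4.32 percentage points lower in LEGSKO+BSO (two-sided exact permutation test, p = 0.886), and without it 1.09 points higher (p = 0.314). The smallest p this exact test allows is 0.0286. WT libraries held 25.71 to 30.01 M counts and LEGSKO+BSO libraries 39.03 to 46.57 M, so depth and group cannot be told apart.

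Markers of other cells were summed in each library. Those of immune cells reached 1.09 to 2.17 CPM in WT and 4.33 to 6.44 CPM in LEGSKO+BSO, with Cd3e and H2-Aa at 0. Blood vessel markers summed to 75.7 to 105.5 CPM in WT (98.8 to 105.5 CPM in WT Fibers 2 to 4) and 111.1 to 119.7 CPM in LEGSKO+BSO, with Kdr, Tie1, Cldn5 and Cspg4 at 0. None of 5 vessel markers tested was called, with a median log2 change of -0.35. Without WT Fibers 1 none of 6 was called, with a median of 0.11. Lens epithelial markers summed to 7428 to 8984 CPM in WT and 6901 to 7269 CPM in LEGSKO+BSO. These 3 sums did not overlap between groups, those of the other 5 lists of non-fiber cells did, and the part of the former in the results below was not tested. In bulk RNA, fewer cells of a type and less RNA per cell cannot be told apart.

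**Figure D1:**
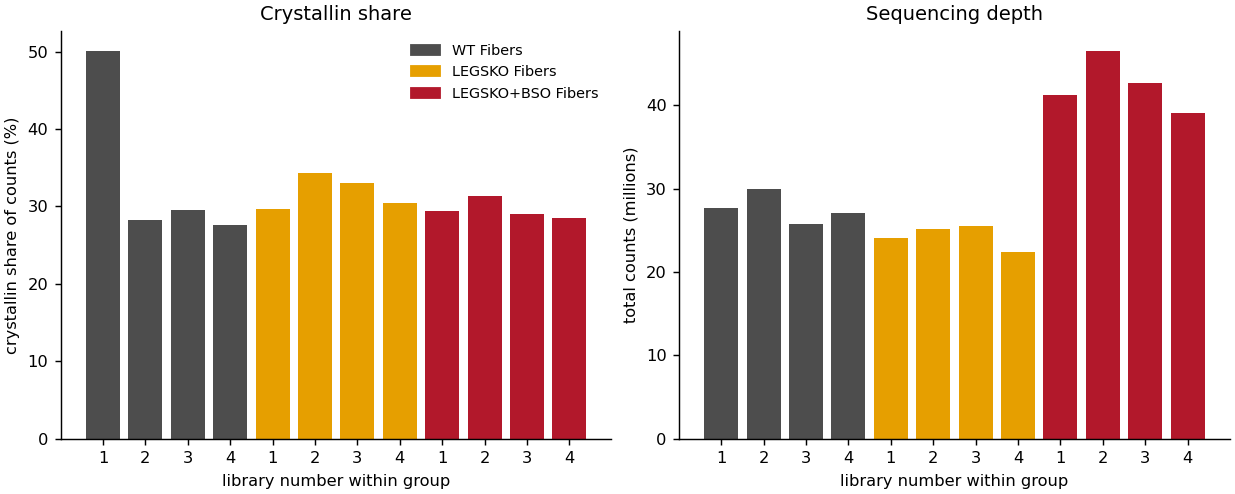
Crystallin share of counts (left, percent) and total counts (right, M) in each of the 12 fiber libraries, 1 bar per library, numbered within WT, LEGSKO and LEGSKO+BSO. WT Fibers 1 reaches 50.1% crystallin counts, above the 11 others, and the 4 LEGSKO+BSO libraries are the deepest.

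The genes of glutathione synthesis were examined first. Gclc (Entrez 14629, chr9:77754535-77794489), the gene targeted in LEGSKO, was counted at 135, 71.9, 75.5 and 70.4 CPM in WT Fibers 1 to 4 and at 79.3, 69.3, 71.8 and 78.9 CPM in LEGSKO+BSO Fibers 1 to 4. Apart from WT Fibers 1 the 2 groups overlapped, and Gclc did not pass the test (log2 change -0.23 ± 0.16 SE, adjusted p = 0.443 by the quasi-likelihood F test of edgeR with p-values adjusted after Benjamini and Hochberg, used throughout). Leaving out WT Fibers 1 changed its sign (log2 0.042, adjusted p = 0.796). The counts cover the whole gene and the sources used here do not give the deleted part, so this value does not check the knockout. Gclm (chr3:122245487-122267215) was higher: its CPM was 69.5, 84.8, 88.2 and 90.5 in WT and 104, 105, 111 and 113 in LEGSKO+BSO, with no overlap (log2 change 0.38 ± 0.079 SE, adjusted p = 0.0148). Untreated LEGSKO fibers held 98.2, 97.7, 108 and 97.9 CPM and did not pass the same test against WT (adjusted p = 0.105). LEGSKO+BSO was not shown to differ from untreated LEGSKO for Gclm (log2 0.11 ± 0.078, adjusted p = 0.667). Gss was counted at 454, 476, 439.7 and 445 CPM in WT and 434, 502, 457 and 418 CPM in LEGSKO+BSO, and did not pass (adjusted p = 0.988).

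Over all 13436 genes tested, 742 differed at an adjusted p below 0.05, which is 5.52%. Of these, 410 (3.05%) were higher and 332 (2.47%) lower in LEGSKO+BSO. Most changes were small, and 64 genes rose and 45 fell by 2-fold or more. The groups did not overlap for 681 of the 742 genes, and for 1950 of all genes tested (14.5%). Without WT Fibers 1, 1075 of 13615 genes passed (7.9%), 633 higher (4.65%) and 442 lower (3.25%). Of the 742 genes, 659 passed both with and without it, all in the same direction, and 83 passed only with it. In 8 fits that each left out 1 library, 215 of the 742 passed every time, 147 higher and 68 lower. The count fell to between 285 and 308 without any one of LEGSKO+BSO Fibers 1, 3 or 4 and to 418 without WT Fibers 2. DESeq2 called 1172 genes, including 739 of the 742.

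**Figure D2:**
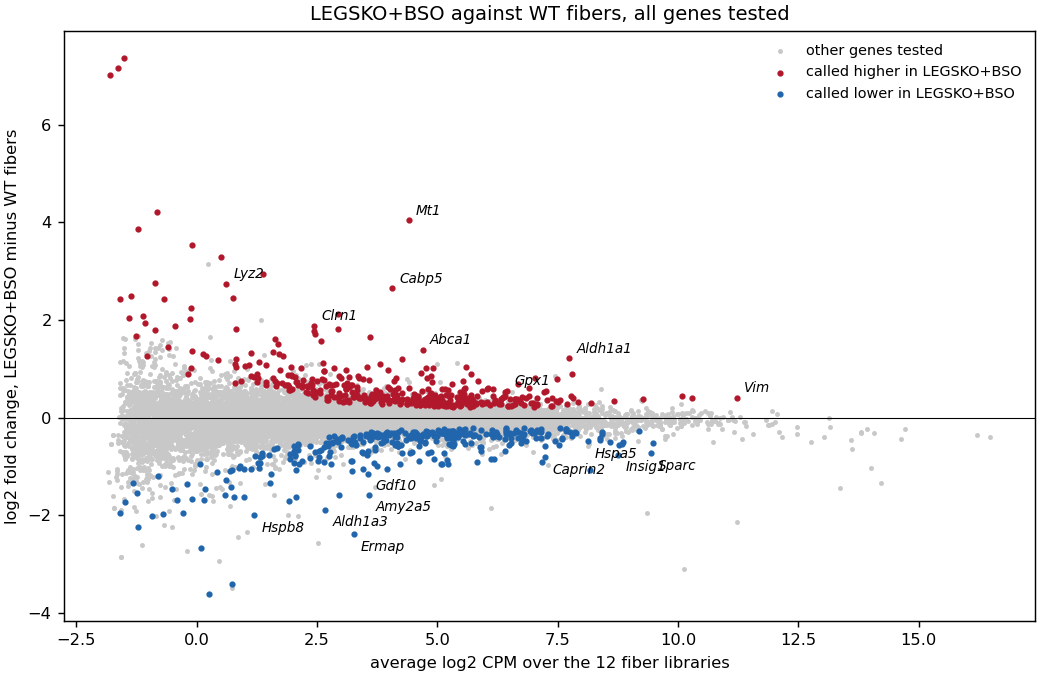
Log2 fold change of LEGSKO+BSO over WT fibers (vertical) against average log2 CPM (horizontal), 1 point per gene tested, with the 410 genes called higher in red and the 332 called lower in blue. Mt1 stands highest among genes of moderate level, and most called genes lie within 2-fold.

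Mt1 (Entrez 17748, chr8:94178883-94180327), encoding metallothionein 1, a small cysteine-rich protein that binds zinc and copper, led the 10 highest fold changes among called genes that had an average of at least 1 log2 CPM and no overlap between groups. It was counted at 1.17, 3.02, 1.24 and 2.004 CPM in WT Fibers 1 to 4 and at 28.2, 31.4, 32.6 and 35.9 CPM in LEGSKO+BSO Fibers 1 to 4. Every LEGSKO+BSO library was far above every WT library, and the fitted difference was 16.5-fold (log2 change 4.04 ± 0.20 SE, adjusted p = 4.74e-08). Untreated LEGSKO fibers held 25.7, 35.4, 25.5 and 29.7 CPM, 14.96-fold above WT. LEGSKO+BSO was not shown to differ from them (log2 0.14 ± 0.16, adjusted p = 0.795). Mt2, its neighbor and close relative, was at 0, 1.48, 0.112 and 0.781 CPM in WT and 0.506, 0.497, 0.402 and 0.486 CPM in LEGSKO+BSO, with WT Fibers 2 the highest. Reads that fit both copies may have been lost or split, so the 2 levels are uncertain. The Mt1 promoter is shown because metallothionein promoters are known to hold metal response elements. The 250 bases before the transcript start listed by RefSeq, which lies inside the gene's full span (GRCm38.p6, chr8:94178839-94179088, + strand), held 1 match to TGCACNC or TGCGCNC on either strand, in capitals, starting 23 bases before the start. Of 32851 promoters of this length, 21.4% held such a match.
Mt1: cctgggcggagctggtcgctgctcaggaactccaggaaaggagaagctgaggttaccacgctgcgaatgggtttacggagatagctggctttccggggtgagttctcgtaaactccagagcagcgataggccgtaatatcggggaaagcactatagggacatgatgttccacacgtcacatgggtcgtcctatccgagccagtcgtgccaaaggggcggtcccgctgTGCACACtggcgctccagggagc

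The next highest genes encode calcium-binding, iron transport and membrane proteins. Cabp5, a calmodulin-like calcium-binding protein known from retinal neurons, was at 4.67, 2.55, 5.02 and 4.11 CPM in WT and 25.6, 18.5, 26.5 and 30.8 CPM in LEGSKO+BSO. The lowest LEGSKO+BSO value was several times the highest WT value (6.28-fold, log2 change 2.65 ± 0.21 SE, adjusted p = 1.08e-05). Retinal neuron and photoreceptor markers summed to 34.8 to 44.8 CPM in WT, 47.5 to 91.5 CPM in LEGSKO and 44.2 to 51.6 CPM in LEGSKO+BSO. Of 14 such markers tested, only Abca4 was called, higher (log2 0.77 ± 0.12, adjusted p = 0.00362), with a list median of 0.019. The share called was 7.14%, beside 5.52% of all genes, and the part of this sum was not tested. Trf, which encodes the plasma iron carrier transferrin, was at 3.11, 4.16, 1.84 and 2.34 CPM in WT and 9.02, 8.26, 11.1 and 12.1 CPM in LEGSKO+BSO. The groups stood apart (3.52-fold, log2 change 1.82 ± 0.21 SE, adjusted p = 2.80e-04). Clrn1, a membrane protein of sensory cells, was 3.70-fold higher (log2 change 1.89 ± 0.25 SE, adjusted p = 9.13e-04), and Tmtc1, a mannosyltransferase of the endoplasmic reticulum, 3.43-fold higher (log2 change 1.78 ± 0.15 SE, adjusted p = 2.01e-05). Both had risen in untreated LEGSKO as well, by 2.11 and 1.15 on the log2 scale (adjusted p = 6.58e-04 and 0.00133).

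Glcci1 (log2 1.73 ± 0.23, adjusted p = 9.13e-04), the kinesin family member Kif26a (log2 1.58 ± 0.23, adjusted p = 0.00148) and Frem1, a basement membrane protein (log2 1.502 ± 0.21, adjusted p = 0.00119), rose as well. Abca1, a cholesterol exporter described with the sterol genes, was also among the highest. The CPM of Frem1 was 1.45, 1.67, 1.05 and 1.33 in WT. Its levels of 3.91, 3.22, 4.65 and 4.45 in untreated and 3.70, 5.01, 2.77 and 4.10 in treated knockout fibers overlapped. The highest genes named above kept their call in each of the 8 fits that left out 1 library, with adjusted p values of Abca1 up to 0.0354.

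**Figure D3:**
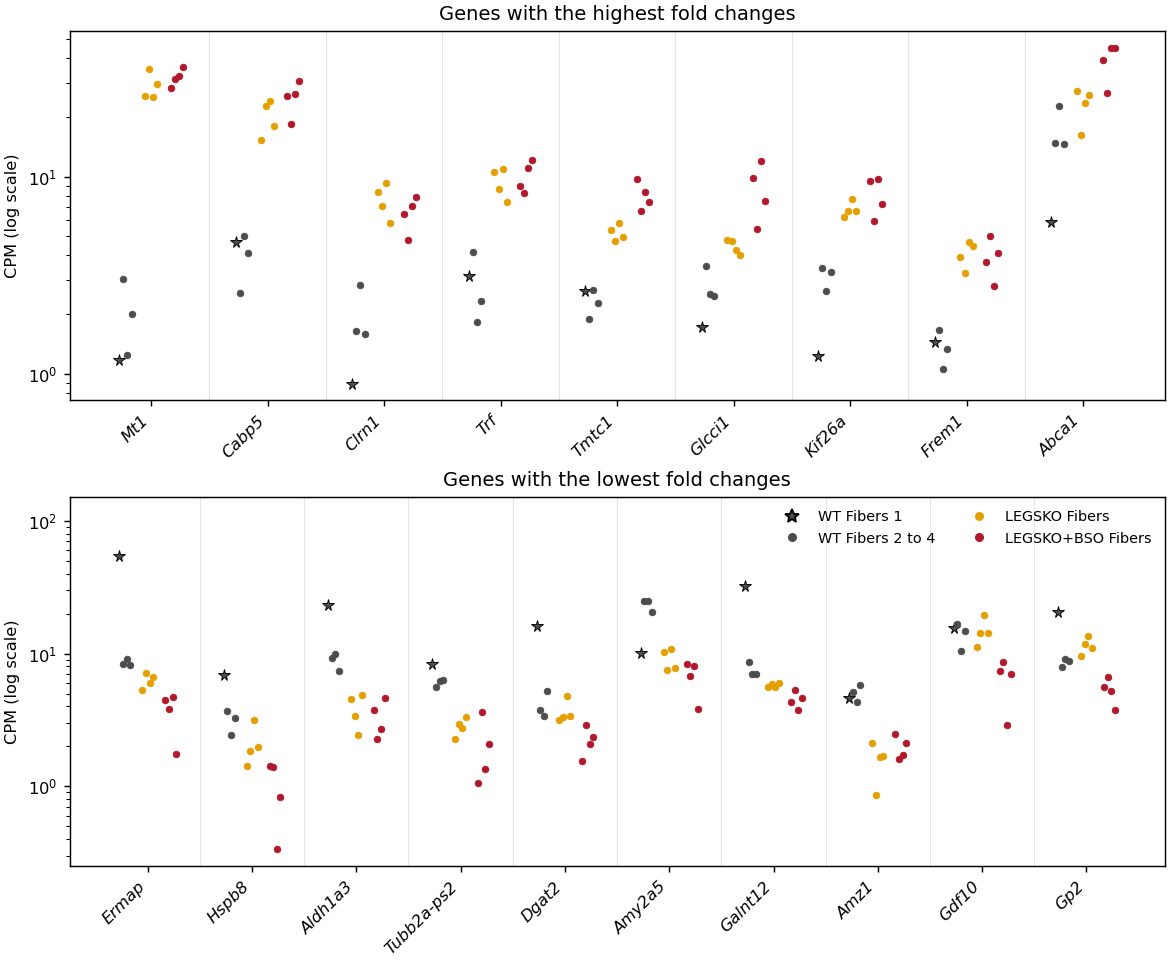
CPM of each fiber library on a log axis for genes with the highest (top) and lowest (bottom) fold changes among the called genes, with WT in gray, LEGSKO in orange and LEGSKO+BSO in red, and WT Fibers 1 as a star. WT Fibers 1 is the highest WT library for Ermap, Hspb8, Aldh1a3, Tubb2a-ps2, Dgat2, Galnt12 and Gp2.

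Among genes that fell, Ermap, a membrane protein known from erythroid cells, fell the most, and the size of its fall rested on WT Fibers 1. Its CPM was 54.1, 8.28, 9.11 and 8.25 in WT Fibers 1 to 4 and 4.46, 3.81, 4.74 and 1.76 in LEGSKO+BSO Fibers 1 to 4. The groups did not overlap (5.24-fold lower, log2 change -2.39 ± 0.54 SE, adjusted p = 0.0212), and without WT Fibers 1 the difference was 2.31-fold (adjusted p = 0.00259). Its call was lost without LEGSKO+BSO Fibers 1, 3 or 4 (adjusted p up to 0.0635). Dgat2, the last enzyme of triglyceride synthesis, fell 3.09-fold (adjusted p = 0.0316) and 1.84-fold without WT Fibers 1 (adjusted p = 0.0183). Galnt12, which starts O-linked glycans, fell 2.98-fold (adjusted p = 0.0321) and 1.68-fold without that library (adjusted p = 0.00189). Both lost their call without some LEGSKO+BSO libraries, Dgat2 without LEGSKO+BSO Fibers 1, 3 or 4 (adjusted p up to 0.0948) and Galnt12 without LEGSKO+BSO Fibers 1, 2, 3 or 4 (adjusted p up to 0.0939). Gp2 (log2 -1.10 ± 0.26, adjusted p = 0.0258) did so without LEGSKO+BSO Fibers 1, 3 or 4 (adjusted p up to 0.0768), and Gdf10, a secreted TGF-beta family member (log2 -1.15 ± 0.25, adjusted p = 0.0191), without WT Fibers 2 (adjusted p up to 0.0550).

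The remaining genes at the low end did not rest on 1 library. Hspb8, a small heat shock protein that works in selective autophagy, was at 6.89, 3.69, 2.44 and 3.26 CPM in WT and 1.43, 1.41, 0.335 and 0.834 CPM in LEGSKO+BSO. WT Fibers 1 was the highest and LEGSKO+BSO Fibers 3 the lowest library (3.99-fold lower, log2 change -1.997 ± 0.40 SE, adjusted p = 0.0122). Amy2a5, a pancreatic-type amylase, was at 10.01, 24.7, 24.7 and 20.4 CPM in WT and 8.37, 6.79, 8.04 and 3.798 CPM in LEGSKO+BSO (log2 change -1.58 ± 0.26 SE, adjusted p = 0.00373). Here WT Fibers 1 was the lowest of the WT libraries, yet above all treated ones. The metalloprotease gene Amz1 fell by 1.33 on the log2 scale (adjusted p = 0.00373) and the pseudogene Tubb2a-ps2 by 1.70 (adjusted p = 0.00427). Tubb2a-ps2 shares sequence with other tubulin genes, so its counts are uncertain.

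The genes that passed in the lists of glutathione synthesis and of peroxidases and thioredoxins were all higher, though not all encode enzymes. In the list of glutathione synthesis, recycling and breakdown, 3 of 23 members tested rose, against 3.05% of all genes, and none fell. They were Gclm, the glutamate transporter Slc1a2, which supplies a precursor amino acid, and the mitochondrial glutaredoxin Glrx5. Slc1a2 was at 4.84, 6.62, 4.61 and 5.94 CPM in WT and 9.71, 11.1, 8.76 and 10 CPM in LEGSKO+BSO (log2 change 0.84 ± 0.13 SE, adjusted p = 0.00243). The list's median log2 change was -0.0029, beside -0.011 over all genes tested. Glrx5 (log2 0.45 ± 0.11, adjusted p = 0.0235) lost its call without WT Fibers 2 or LEGSKO+BSO Fibers 3 or 4 (adjusted p up to 0.0712). Glutathione reductase, Gsr, was at 7.395, 7.65, 7.95 and 7.68 CPM in WT and 7.98, 10.1, 8.27 and 9.61 CPM in LEGSKO+BSO and did not pass (adjusted p = 0.284). Neither did the cystine transporter Slc7a11 (log2 -0.054, adjusted p = 0.781).

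Of 23 peroxidase, thioredoxin and peroxiredoxin genes, 4 rose, against 3.05% of all genes, and none fell, with a median log2 change of 0.0075. Gpx1, the cytosolic glutathione peroxidase that reduces hydrogen peroxide, was at 69.2, 69.2, 68.9 and 66.9 CPM in WT and 99.9, 101, 109 and 92.7 CPM in LEGSKO+BSO. The WT libraries were nearly level, and every treated library lay above them (1.47-fold, log2 change 0.55 ± 0.074 SE, adjusted p = 9.53e-04). Txnip, which binds and inhibits thioredoxin, was at 16.4, 11.4, 11.9 and 12.2 CPM in WT and 21.5, 23.2, 23.4 and 19.01 CPM in LEGSKO+BSO (log2 change 0.76 ± 0.11 SE, adjusted p = 0.00225). Srxn1, which repairs overoxidized peroxiredoxins, rose less (log2 0.46 ± 0.091, adjusted p = 0.0107), as did the mitochondrial thioredoxin Txn2 (log2 0.31 ± 0.081, adjusted p = 0.0407). Txn2 lost its call without WT Fibers 2, 3 or 4 or LEGSKO+BSO Fibers 1, 3 or 4 (adjusted p up to 0.119). In the fit without WT Fibers 1, 5 members rose and 2 fell.

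Of 20 glutathione S-transferase genes, 1 rose (5%, beside 3.05% of all genes), with a median log2 change of 0.034. It was Mgst1, a membrane-bound transferase and peroxidase, at 59.8, 77.3, 69.2 and 77.2 CPM in WT and 124, 103, 128 and 105 CPM in LEGSKO+BSO (log2 change 0.70 ± 0.097 SE, adjusted p = 0.00120). Untreated LEGSKO was at 109, 131, 123 and 113 CPM, overlapping the treated fibers. Genes known as targets of NRF2, the transcription factor of the oxidative stress response, gave 3 of 31 higher (9.68%, beside 3.05% of all genes) and none lower. Their median log2 change was 0.069. The called targets were Srxn1 and Gclm, counted above too, and the transketolase Tkt (log2 0.31 ± 0.082, adjusted p = 0.0387). Tkt lost its call without WT Fibers 2, 3 or 4 or LEGSKO+BSO Fibers 1, 2, 3 or 4 (adjusted p up to 0.112). Nqo1, a much used marker of NRF2 activity, was at 1.11, 2.74, 2.32 and 2.55 CPM in WT and 1.56, 2.38, 1.79 and 2.08 CPM in LEGSKO+BSO (adjusted p = 0.729). Hmox1, the inducible heme oxygenase, was at 1273, 524, 568 and 560.2 CPM in WT and 624, 386, 652 and 439 CPM in LEGSKO+BSO (adjusted p = 0.274). Nqo1 and Hmox1 were singled out after their values were seen. Leaving out WT Fibers 1, 6 of 31 rose and none fell. The 250 bases before the listed transcript start of Gclm (chr3:122245307-122245556, + strand) are shown because NRF2 is known to bind antioxidant response elements. They held 1 match to TGACNNNGC, in capitals and read on the other strand, starting 134 bases before the start, a match found in 10.2% of all promoters of this length. The stretch also held a metal response element, left in lower case. Among the promoters of the 3 called NRF2 targets, that of Gclm alone held an antioxidant response element. None of the promoters of the 4 called peroxidase, thioredoxin and peroxiredoxin genes held one.
Gclm: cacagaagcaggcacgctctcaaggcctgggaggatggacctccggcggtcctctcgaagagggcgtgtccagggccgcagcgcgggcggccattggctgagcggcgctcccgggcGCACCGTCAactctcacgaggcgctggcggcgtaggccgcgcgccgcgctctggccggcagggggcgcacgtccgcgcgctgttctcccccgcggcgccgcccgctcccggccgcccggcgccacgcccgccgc

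Aldehyde dehydrogenases moved in both directions. Of 31 genes of aldehyde, ketone and carbonyl metabolism, 3 rose and 2 fell (16.1%, beside 5.52% of all genes), with a median log2 change of 0.021. Aldh1a1 (chr19:20492583-20643463), the retinaldehyde dehydrogenase abundant in lens, was at 151, 120.1, 117 and 90.2 CPM in WT and 324, 252, 254 and 284 CPM in LEGSKO+BSO. Every treated library exceeded every WT library (2.33-fold, log2 change 1.22 ± 0.14 SE, adjusted p = 2.80e-04). Its neighbor and near copy Aldh1a7 rose 1.90-fold (adjusted p = 0.00659), and reads shared by the copies make the split between them uncertain. Aldh1a3, which also oxidizes retinaldehyde, went the other way, at 23.4, 9.29, 9.89 and 7.44 CPM in WT and 3.75, 2.26, 2.73 and 4.61 CPM in LEGSKO+BSO (3.70-fold lower, log2 change -1.89 ± 0.33 SE, adjusted p = 0.00535). It was 2.67-fold lower without WT Fibers 1. The mitochondrial Aldh1b1 fell (log2 -0.62 ± 0.13, adjusted p = 0.0181) and the aldo-keto reductase Akr1c13 rose (log2 0.71 ± 0.18, adjusted p = 0.03501). Aldh1b1 lost its call without LEGSKO+BSO Fibers 1 or 4 (adjusted p up to 0.0686), and Akr1c13 without WT Fibers 2, 3 or 4 or LEGSKO+BSO Fibers 2, 3 or 4 (adjusted p up to 0.0937). In untreated LEGSKO, Aldh1a1 was at 224, 264, 282 and 199 CPM and Aldh1a3 at 4.53, 3.40, 2.42 and 4.88 CPM, both called against the same WT libraries (adjusted p = 0.00192 and 0.0223).

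Cholesterol genes were the list with the most called members, and 8 of its 10 were lower. Of 36 genes of cholesterol synthesis and uptake, 8 fell, against 2.47% of all genes, and 2 rose, with a median log2 change of -0.27 beside -0.011 over all genes tested. Insig1 (chr5:28071412-28078662), which holds the sterol sensor in the endoplasmic reticulum, was at 524, 596, 489.5 and 576 CPM in WT and 285, 381, 286 and 342 CPM in LEGSKO+BSO. No treated library reached the lowest WT library (1.69-fold lower, log2 change -0.76 ± 0.10 SE, adjusted p = 9.13e-04). Msmo1, a sterol oxidase of the synthesis pathway, was at 35.4, 24.4, 19.7 and 22.1 CPM in WT and 13.3, 14.5, 11.5 and 13.4 CPM in LEGSKO+BSO (1.92-fold lower, log2 change -0.94 ± 0.15 SE, adjusted p = 0.00345). Both genes kept their calls whichever library was left out.

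Other members that fell were Fdft1 (log2 -0.59 ± 0.13, adjusted p = 0.0184), Hmgcs1 (log2 -0.84 ± 0.20, adjusted p = 0.0258), Idi1 (log2 -0.89 ± 0.23, adjusted p = 0.0407) and Dhcr7 (log2 -0.95 ± 0.27, adjusted p = 0.0495). WT Fibers 1 was the highest WT library for all 4. Dhcr7, for one, was at 94.0, 33.1, 32.5 and 34.1 CPM in WT Fibers 1 to 4 and 24.4, 25.9, 26.3 and 22.7 CPM in LEGSKO+BSO Fibers 1 to 4. All 4 were still called without WT Fibers 1, with smaller changes of -0.41, -0.51, -0.47 and -0.42 on the log2 scale. Leaving out a LEGSKO+BSO library cost calls: Fdft1 was lost without LEGSKO+BSO Fibers 1, 3 or 4 (adjusted p up to 0.0679) and Hmgcs1 without LEGSKO+BSO Fibers 1, 3 or 4 (adjusted p up to 0.0854). Idi1 was lost without LEGSKO+BSO Fibers 1, 2, 3 or 4 (adjusted p up to 0.114), and Dhcr7 without LEGSKO+BSO Fibers 1, 2, 3 or 4 (adjusted p up to 0.123). In the list as a whole, 10 fell and 3 rose without WT Fibers 1. Untreated LEGSKO fibers lay between the 2 groups for Insig1, at 428, 434, 446 and 384 CPM, and did not pass against WT (adjusted p = 0.0818) or against LEGSKO+BSO (adjusted p = 0.249).

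The 2 members that rose export cholesterol. Abca1 was at 5.89, 14.8, 22.9 and 14.7 CPM in WT and 39.1, 26.7, 45.1 and 44.95 CPM in LEGSKO+BSO, with WT Fibers 1 the lowest and no overlap (2.64-fold, log2 change 1.40 ± 0.27 SE, adjusted p = 0.0107). Abcg1 was near the limit of detection in WT, at 0, 0.0945, 0.0750 and 0.238 CPM, and at 2.001, 0.311, 1.52 and 1.51 CPM in LEGSKO+BSO. Its fold change of 11.6 rests on few counts and was 19.6 without WT Fibers 4. Abcg1 passed the count filter through the knockout libraries alone, so its call is not given as support. The promoter of Hmgcs1 is shown because sterol regulatory elements were searched after the list was seen to be lower. Its 250 bases before the start (chr13:119690101-119690350, + strand) held 1 match to TCACNCCAC on either strand, in capitals, starting 137 bases before the start, and 1.05% of all promoters of this length held one. It was the only match among the 5 promoters of the 8 lower genes that were in the table.
Hmgcs1: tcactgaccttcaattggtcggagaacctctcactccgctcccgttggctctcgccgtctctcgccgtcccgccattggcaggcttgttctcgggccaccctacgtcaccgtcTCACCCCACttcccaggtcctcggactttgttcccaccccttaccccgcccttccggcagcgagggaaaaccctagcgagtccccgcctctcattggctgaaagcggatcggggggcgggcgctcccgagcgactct

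**Figure D4:**
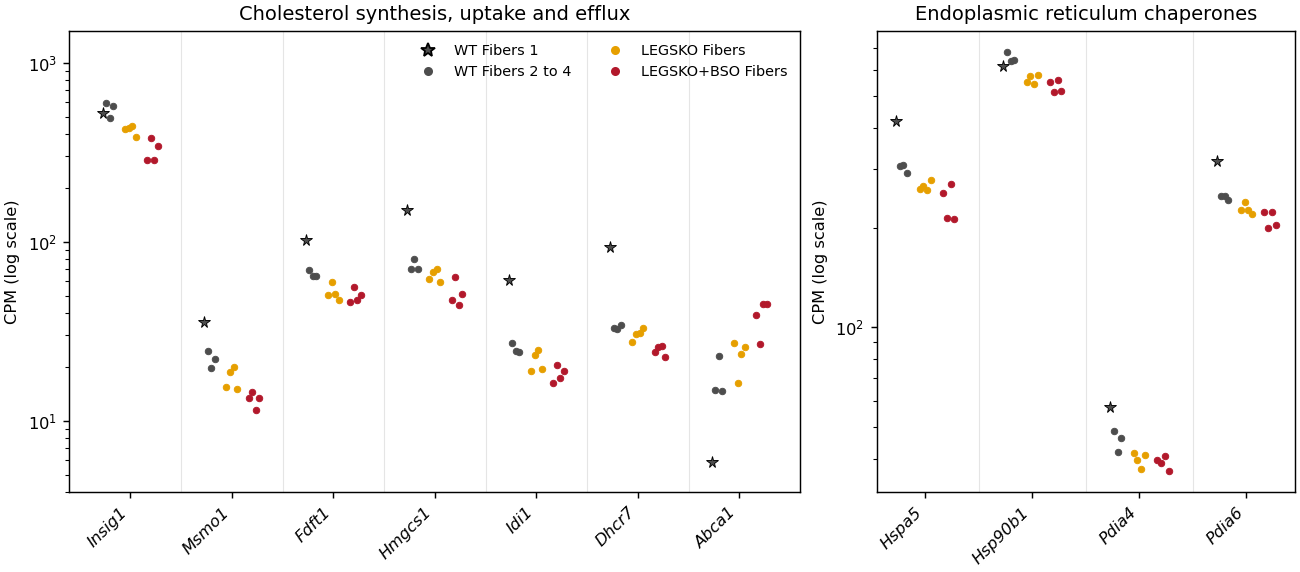
CPM of each fiber library on a log axis for 6 cholesterol genes that fell and Abca1 (left) and for the 4 endoplasmic reticulum chaperones that fell (right), with WT in gray, LEGSKO in orange, LEGSKO+BSO in red and WT Fibers 1 as a star. For the 10 genes shown that fell every LEGSKO+BSO library lies below every WT library, and WT Fibers 1 is the highest library for all of them except Insig1 and Hsp90b1.

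Fatty acid genes did not move one way. Of 43 tested, 3 rose and 3 fell (14%, beside 5.52% of all genes), with a median log2 change of -0.054. Elovl4, which elongates very long fatty acids, was at 11.8, 8.73, 8.62 and 6.32 CPM in WT and 5.50, 4.53, 4.78 and 5.72 CPM in LEGSKO+BSO (log2 change -0.78 ± 0.15 SE, adjusted p = 0.0112). Fasn, the fatty acid synthase, rose (log2 0.45 ± 0.12, adjusted p = 0.0450), as did the lipid droplet protein Plin3 (log2 0.47 ± 0.11, adjusted p = 0.0248) and the acyl-CoA synthetase Acsl1 (log2 0.32 ± 0.087, adjusted p = 0.0443). Besides Elovl4, Dgat2 fell, as given above, and so did the fatty acid carrier Cd36. It was at 1.45, 0.347, 1.24 and 0.747 CPM in WT and 0.115, 0.435, 0.112 and 0.255 CPM in LEGSKO+BSO, and the groups overlapped (log2 -1.98 ± 0.52, adjusted p = 0.0405). Fasn lost its call without WT Fibers 2 or 3 or LEGSKO+BSO Fibers 1, 2, 3 or 4 (adjusted p up to 0.107), Plin3 without WT Fibers 3 or LEGSKO+BSO Fibers 1, 3 or 4 (adjusted p up to 0.0696), Acsl1 without WT Fibers 3 or 4 or LEGSKO+BSO Fibers 1, 2, 3 or 4 (adjusted p up to 0.111) and Cd36 without WT Fibers 1, 3 or 4 or LEGSKO+BSO Fibers 1, 3 or 4 (adjusted p up to 0.119).

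A few chaperones of the endoplasmic reticulum fell. Of 37 genes of the unfolded protein and integrated stress response, 4 fell, against 2.47% of all genes, and none rose, with a median log2 change of -0.15. All 4 encode proteins that fold secretory and membrane proteins. Hspa5 (chr2:34772090-34776529), known as BiP, was at 422, 307, 309 and 293 CPM in WT and 255, 214, 272 and 213 CPM in LEGSKO+BSO (1.40-fold lower, log2 change -0.48 ± 0.11 SE, adjusted p = 0.0233). Hsp90b1, known as GRP94, was at 615, 679, 639 and 642 CPM in WT and 553, 515, 560.2 and 518 CPM in LEGSKO+BSO (1.20-fold lower, log2 change -0.26 ± 0.065 SE, adjusted p = 0.0304). The disulfide isomerases Pdia4 and Pdia6 fell by 0.32 and 0.32 on the log2 scale (adjusted p = 0.0417 and 0.0422). The drops were small and near the threshold. Hspa5 lost its call without LEGSKO+BSO Fibers 1, 2 or 4 (adjusted p up to 0.0768), Hsp90b1 without WT Fibers 2, 3 or 4 or LEGSKO+BSO Fibers 1, 2, 3 or 4 (adjusted p up to 0.103), Pdia4 without WT Fibers 2 or 4 or LEGSKO+BSO Fibers 1, 2, 3 or 4 (adjusted p up to 0.122) and Pdia6 without WT Fibers 2 or 3 or LEGSKO+BSO Fibers 1, 2, 3 or 4 (adjusted p up to 0.117). All 4 passed without WT Fibers 1, when 10 of the list fell and 3 rose.

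The promoters of 3 of the 4 genes held the endoplasmic reticulum stress element (CCAAT, 9 further bases and CCACG), searched on both strands, which 0.113% of all promoters of this length held. The element was searched after these genes were seen to be lower, and the match is a description of the sequence. It started 65 bases before the start in Hspa5 (chr2:34771840-34772089, + strand) and 98 bases before it in Pdia6 (chr12:17266339-17266588, + strand). Hsp90b1 (chr10:86705445-86705694, - strand) held 2, 212 and 107 bases before the start, the second on the other strand. The sequences are shown with the elements in capitals. The stretch of Pdia4 held none.
Hspa5: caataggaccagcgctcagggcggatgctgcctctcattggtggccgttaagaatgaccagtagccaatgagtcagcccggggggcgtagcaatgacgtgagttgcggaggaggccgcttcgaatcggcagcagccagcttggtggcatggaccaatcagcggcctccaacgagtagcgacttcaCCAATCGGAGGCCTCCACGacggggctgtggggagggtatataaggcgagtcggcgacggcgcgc
Pdia6: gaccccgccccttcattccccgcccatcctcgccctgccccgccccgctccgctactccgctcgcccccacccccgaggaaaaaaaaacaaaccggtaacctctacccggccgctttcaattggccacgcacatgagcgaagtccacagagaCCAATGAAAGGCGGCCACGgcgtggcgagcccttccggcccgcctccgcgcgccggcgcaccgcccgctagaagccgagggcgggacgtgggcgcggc
Hsp90b1: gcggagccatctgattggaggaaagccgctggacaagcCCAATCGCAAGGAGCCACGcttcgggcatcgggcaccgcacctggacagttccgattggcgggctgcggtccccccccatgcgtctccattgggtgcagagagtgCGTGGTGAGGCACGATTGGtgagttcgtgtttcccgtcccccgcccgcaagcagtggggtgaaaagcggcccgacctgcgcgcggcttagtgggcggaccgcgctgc

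Cytosolic chaperones and the proteasome gave few calls, all lower, and the share of proteasome genes called was near that of all genes. Of 33 heat shock and chaperone genes, 3 fell, against 2.47% of all genes, with a median log2 change of -0.13. They were Hspb8, Hspa4l, which assists Hsp70 (log2 -0.35 ± 0.074, adjusted p = 0.0152), and Dnajb4 (log2 -0.38 ± 0.10, adjusted p = 0.0434). Of 36 proteasome subunits, 2 were called, both lower (5.56%, beside 5.52% of all genes called and 2.47% called lower), with a median of -0.089. They were Psma2 (log2 -0.47 ± 0.10, adjusted p = 0.0183) and Psmc6 (log2 -0.27 ± 0.074, adjusted p = 0.0450). Hspa4l lost its call without LEGSKO+BSO Fibers 4 (adjusted p up to 0.0560), Psma2 without LEGSKO+BSO Fibers 4 (adjusted p up to 0.0598), Dnajb4 without WT Fibers 1, 3 or 4 or LEGSKO+BSO Fibers 1, 2 or 4 (adjusted p up to 0.125), and Psmc6 whichever of the 8 libraries was left out (adjusted p up to 0.119). None of 78 cytosolic ribosomal protein genes and none of 76 nuclear-encoded respiratory chain genes passed, with median log2 changes of -0.043 and -0.059. In the fit without WT Fibers 1, again none of the former and 1 of the latter in each direction passed.

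Crystallins gave no call. All 16 were tested, and the median log2 change was -0.53 with WT Fibers 1 and 0.059 without it. WT Fibers 1 was the highest library for each of the alpha, beta and gamma crystallin genes. Crygf, a gamma crystallin, was at 9508 CPM in WT Fibers 1, at 232.9 to 340.2 CPM in the other WT libraries and at 258.9 to 350.8 CPM in LEGSKO+BSO. Leaving it out, only Crybb3 rose (log2 0.41, adjusted p = 0.0204). Gamma crystallin genes are near copies, and their reads may be shared.

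Fiber structure changed in single genes. Of 26 genes of fiber structure and membrane, Caprin2 and Actn1 fell and Vim rose (11.5%, beside 5.52% of all genes), with a median log2 change of -0.14. Caprin2, an RNA-binding protein of fiber cells, was at 245, 189, 193 and 184 CPM in WT and 119, 129, 105 and 108 CPM in LEGSKO+BSO. The groups were well apart (1.76-fold lower, log2 change -0.81 ± 0.095 SE, adjusted p = 2.85e-04), and untreated LEGSKO held 140.1, 123, 135 and 142 CPM (against WT adjusted p = 0.00610). Vim, the intermediate filament vimentin, was at 2160, 1867, 1922 and 1721 CPM in WT and 2515, 2803, 2344 and 2525 CPM in LEGSKO+BSO (1.33-fold, log2 change 0.41 ± 0.10 SE, adjusted p = 0.0333). The actin crosslinker Actn1 fell by 0.45 on the log2 scale (adjusted p = 0.0448). Vim lost its call without WT Fibers 2, 3 or 4 or LEGSKO+BSO Fibers 1, 2, 3 or 4 (adjusted p up to 0.0798), and Actn1 without WT Fibers 2, 3 or 4 or LEGSKO+BSO Fibers 1, 2, 3 or 4 (adjusted p up to 0.109). Among 23 genes of organelle clearance, the lysosomal protease Ctsd fell (log2 -0.30 ± 0.077, adjusted p = 0.0385) and the autophagy gene Map1lc3a rose (log2 0.67 ± 0.18, adjusted p = 0.0407). The share called was 8.7%, beside 5.52% of all genes, and the list's median was -0.11. Ctsd lost its call without WT Fibers 2 or 4 or LEGSKO+BSO Fibers 1, 2, 3 or 4 (adjusted p up to 0.111) and Map1lc3a without WT Fibers 2, 3 or 4 or LEGSKO+BSO Fibers 1, 3 or 4 (adjusted p up to 0.118).

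Of 24 lens transcription factors, 2 rose and 1 fell (12.5%, beside 5.52% of all genes), with a median log2 change of -0.023. Pitx3, a homeobox factor whose loss stops lens development, was at 33.7, 28.3, 41.2 and 40.8 CPM in WT and 48.9, 54.4, 53.5 and 50.4 CPM in LEGSKO+BSO. The groups did not overlap (1.44-fold, log2 change 0.52 ± 0.11 SE, adjusted p = 0.0137). Six3 rose slightly (log2 0.28 ± 0.062, adjusted p = 0.0190), and Gata3, a factor of fiber differentiation, fell 2.06-fold (adjusted p = 0.0179) at low levels of 3.61, 2.93, 2.06 and 2.72 CPM in WT and 1.61, 1.14, 0.961 and 1.76 CPM in LEGSKO+BSO. Six3 lost its call without WT Fibers 2 or LEGSKO+BSO Fibers 1, 3 or 4 (adjusted p up to 0.0608) and Gata3 without LEGSKO+BSO Fibers 3 (adjusted p up to 0.0543).

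In FGF, BMP, TGF-beta and Wnt signalling, 4 of 39 genes rose and 2 fell (15.4%, beside 5.52% of all genes), with a median log2 change of -0.035. Tcf7l1, a repressor of Wnt targets, was at 6.78, 6.77, 5.96 and 6.76 CPM in WT and 10.2, 9.36, 11.7 and 11.7 CPM in LEGSKO+BSO (1.64-fold, log2 change 0.71 ± 0.097 SE, adjusted p = 0.00110). The ligands Wnt5b (log2 0.53 ± 0.087, adjusted p = 0.00373) and Wnt7a (log2 0.24 ± 0.060, adjusted p = 0.0355) and the TGF-beta binding protein Ltbp1 (log2 0.38 ± 0.060, adjusted p = 0.00345) rose. The receptors Fzd4 (log2 -0.92 ± 0.21, adjusted p = 0.0204) and Tgfbr1 (log2 -0.51 ± 0.12, adjusted p = 0.0293) fell. Wnt7a lost its call without WT Fibers 2 or 3 or LEGSKO+BSO Fibers 1, 3 or 4 (adjusted p up to 0.110), Fzd4 without LEGSKO+BSO Fibers 1, 3 or 4 (adjusted p up to 0.0720) and Tgfbr1 without WT Fibers 3 or LEGSKO+BSO Fibers 1, 2 or 3 (adjusted p up to 0.0882).

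Matrix and epithelial-mesenchymal transition genes gave 2 higher and 4 lower of 37 (16.2%, beside 5.52% of all genes), with a median log2 change of -0.13. Sparc, a matrix protein of the lens capsule, was at 1128, 919.5, 741 and 748 CPM in WT and 559, 607, 405 and 563 CPM in LEGSKO+BSO. All treated libraries lay below all WT libraries (1.66-fold lower, log2 change -0.73 ± 0.14 SE, adjusted p = 0.00965). Col4a3, a collagen IV chain (log2 -0.50 ± 0.12, adjusted p = 0.0242), and the integrin Itgb1 (log2 -0.36 ± 0.088, adjusted p = 0.0292) also fell. Acta2, smooth muscle actin, rose from 555, 501, 529.8 and 485 CPM in WT to 693, 689, 724 and 589.5 CPM in LEGSKO+BSO (log2 change 0.38 ± 0.085 SE, adjusted p = 0.0192), beside Vim. Blood vessel markers summed to 111.1 to 119.7 CPM in LEGSKO+BSO and 75.7 to 105.5 CPM in WT, with Cspg4 at 0 in all and no vessel marker called. The sum of lens epithelial markers was lower in LEGSKO+BSO (6901 to 7269 CPM against 7428 to 8984 CPM). Of the 23 epithelial markers tested, Itgb1 was called lower and Ccnd1, given below, higher, with a median log2 change of -0.053. The part of both sums was not tested. Acta2 lost its call without LEGSKO+BSO Fibers 1 or 3 (adjusted p up to 0.0643), Col4a3 without WT Fibers 2 or LEGSKO+BSO Fibers 1, 3 or 4 (adjusted p up to 0.0868) and Itgb1 without WT Fibers 2 or LEGSKO+BSO Fibers 1, 3 or 4 (adjusted p up to 0.0949).

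In the lists of transporters, 3 genes passed besides Slc1a2. Slc14a1, a urea channel, was barely counted in WT, at 0.0556, 0.189, 0.262 and 0.204 CPM. In LEGSKO+BSO it was at 2.51, 0.932, 1.74 and 2.32 CPM. Untreated LEGSKO was at 1.39, 2.71, 2.54 and 0.950 CPM, over the same range as the treated fibers. Slc14a1 passed the count filter through the knockout libraries alone, so its call is not given as support. The sodium bicarbonate cotransporter Slc4a4 was at 38.8, 41.0, 35.6 and 38.9 CPM in WT and 26.9, 30.9, 24.5 and 28.6 CPM in LEGSKO+BSO (1.39-fold lower, log2 change -0.48 ± 0.093 SE, adjusted p = 0.0106). Slc14a1 and Slc4a4 were the only 2 of 35 ion, water and glucose transport genes called (median log2 change -0.096), a share of 5.71%, near the 5.52% of all genes. Among 26 amino acid transporters, Slc1a2 rose and the cationic amino acid transporter Slc7a2 fell (log2 -0.46 ± 0.11, adjusted p = 0.0302). The share called was 7.69%, beside 5.52% of all genes, and the median was -0.067. Slc7a2 lost its call without WT Fibers 2 or LEGSKO+BSO Fibers 1, 3 or 4 (adjusted p up to 0.102). Among 27 metallothionein, zinc and iron genes, Mt1 and Trf rose (7.41%, beside 3.05% of all genes) and none fell, with a median log2 change of -0.063.

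Genes of p53 and cell death went both ways, with 4 of 36 higher and 2 lower (16.7%, beside 5.52% of all genes) and a median log2 change of 0.11. Mdm2, the ubiquitin ligase that restrains p53, was at 128, 105, 107 and 102 CPM in WT and 85.7, 74.0, 90.9 and 82.7 CPM in LEGSKO+BSO (log2 change -0.41 ± 0.082 SE, adjusted p = 0.0126). Phlda3, a p53 target that inhibits Akt, was at 16.2, 19.02, 26.2 and 28.4 CPM in WT and 38.6, 29.4, 40.4 and 41.4 CPM in LEGSKO+BSO (log2 change 0.73 ± 0.15 SE, adjusted p = 0.0135). The death receptor Fas fell (log2 -0.87 ± 0.18, adjusted p = 0.0139), and the kinase Plk3 (log2 1.60 ± 0.34, adjusted p = 0.0155), Bcl2 (log2 0.31 ± 0.070, adjusted p = 0.0218) and Ei24 (log2 0.24 ± 0.065, adjusted p = 0.0445) rose. Plk3 lost its call without LEGSKO+BSO Fibers 3 (adjusted p up to 0.0514), Bcl2 without LEGSKO+BSO Fibers 1 or 3 (adjusted p up to 0.0673) and Ei24 without WT Fibers 1, 2 or 3 or LEGSKO+BSO Fibers 1, 2, 3 or 4 (adjusted p up to 0.111). Of 32 cell cycle genes (median log2 change -0.059) only the cyclin Ccnd1 rose, a share of 3.12%, near the 3.05% of all genes. Its CPM was 84.3, 59.9, 68.5 and 58.8 in WT and 87.7, 86.8, 86.7 and 93.3 in LEGSKO+BSO (log2 change 0.39 ± 0.098 SE, adjusted p = 0.0341). It lost its call without WT Fibers 2, 3 or 4 or LEGSKO+BSO Fibers 1, 2, 3 or 4 (adjusted p up to 0.0854), and 3 of the list rose without WT Fibers 1.

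Genes of interferon response, complement and MHC class I, which serve immune defense, were called in 1 direction. Of 26 genes, 4 fell, against 2.47% of all genes, and none rose, and the median log2 change was -0.36. Tap2, a peptide transporter of antigen presentation, was at 18.9, 12.6, 15.1 and 13.7 CPM in WT and 8.56, 10.1, 9.05 and 9.43 CPM in LEGSKO+BSO (1.61-fold lower, log2 change -0.69 ± 0.12 SE, adjusted p = 0.00583). Every treated library lay below every WT library. H2-K1, an MHC class I chain, also fell (log2 -0.45 ± 0.11, adjusted p = 0.0355). In the same libraries the sum of immune cell markers was higher in LEGSKO+BSO (4.33 to 6.44 CPM against 1.09 to 2.17 CPM), and its part was not tested. H2-K1 lost its call without WT Fibers 2 or 4 or LEGSKO+BSO Fibers 1, 2 or 3 (adjusted p up to 0.106). The kinase Ikbke, the single call among 12 inflammatory genes (8.33%, beside 5.52% of all genes, median -0.11), fell (log2 -1.68 ± 0.37, adjusted p = 0.0191). It lost its call without WT Fibers 2 or LEGSKO+BSO Fibers 1, 3 or 4 (adjusted p up to 0.0679). Jun, lower, was the single call among 12 immediate early genes (8.33%, beside 5.52% of all genes), whose median was 0.10. Its log2 change was -0.36 ± 0.097 (adjusted p = 0.0443), and the call was lost without WT Fibers 1 or 4 or LEGSKO+BSO Fibers 1, 3 or 4 (adjusted p up to 0.132).

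**Figure D5:**
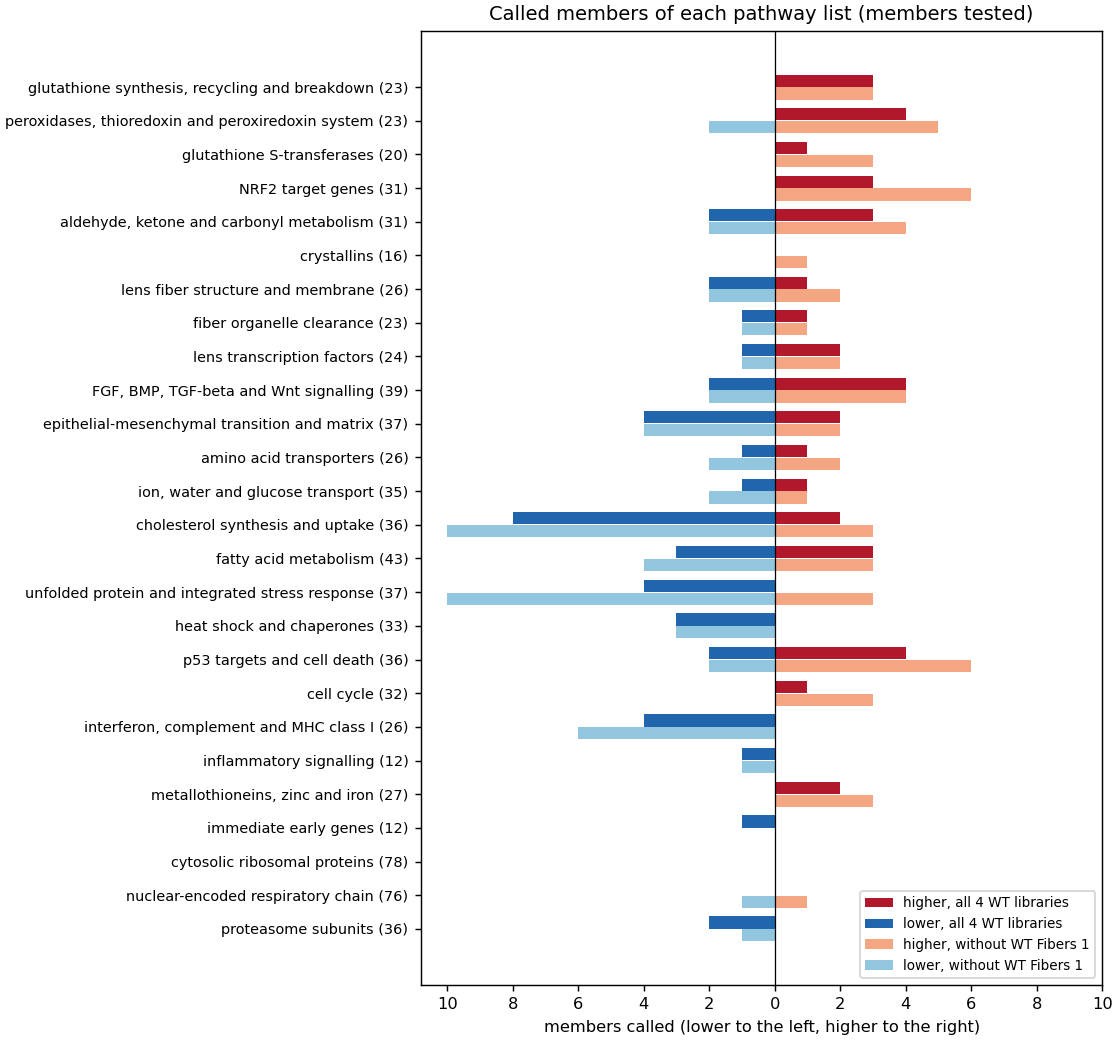
Number of members called in each pathway list, higher to the right and lower to the left, with all 4 WT libraries (dark) and without WT Fibers 1 (light), and the members tested in parentheses. The cholesterol list has the most lower calls, 8 with all libraries and 10 without WT Fibers 1, and ribosomal protein genes have none.

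Treated and untreated knockout fibers share the genotype and differ in the drug. Their comparison uses the same LEGSKO+BSO libraries as the one above. Only 4 of 13436 genes passed (0.0298%), 3 higher and 1 lower (0.00744%) in LEGSKO+BSO, with 1412 at an unadjusted p below 0.05 and 80 called by DESeq2. The 3 higher genes are known from immune cells. Lyz2, lysozyme of macrophages and neutrophils, was at 3.75, 2.75, 2.57 and 2.83 CPM in LEGSKO+BSO Fibers 1 to 4, at 0.426, 0.559, 0.437 and 0.346 CPM in LEGSKO and at 0.612, 0.410, 0.262 and 0.510 CPM in WT. All treated libraries lay above all others (log2 2.74 ± 0.26 against LEGSKO, adjusted p = 3.83e-04). Ccr2, a chemokine receptor of monocytes, was at 1.36, 1.35, 1.03 and 0.741 CPM in LEGSKO+BSO, at 0 in all LEGSKO libraries and at 0.111, 0.126, 0 and 0 CPM in WT. Ncf4, a subunit of the phagocyte oxidase, was at 0.644, 0.807, 0.514 and 0.602 CPM in LEGSKO+BSO and at 0 in the 8 other fiber libraries. Both passed the count filter through the LEGSKO+BSO libraries alone, which were also the deepest, and were set against 4 LEGSKO libraries at 0, so their p-values are not given as support. The lower gene was the microRNA gene Mir703, at 11.4, 12.03, 10.4 and 10.5 CPM in LEGSKO+BSO, 14.6, 20.9, 16.3 and 16.9 CPM in LEGSKO and 14.8, 13.6, 14.8 and 14.1 CPM in WT (adjusted p = 0.0370). When any single library of either knockout group was left out, 1 or 2 genes passed, except that 7 did without LEGSKO Fibers 1. Lyz2 passed in all 8 of these fits. Ccr2 was lost in 6, passing only without LEGSKO Fibers 1 or LEGSKO+BSO Fibers 4, Mir703 in all but the fit without LEGSKO Fibers 1 (adjusted p up to 0.199), and Ncf4 in all 8. The immune marker sum, which includes Lyz2, was 4.33 to 6.44 CPM in LEGSKO+BSO, 1.16 to 1.51 CPM in LEGSKO and 1.09 to 2.17 CPM in WT, and its part in these calls was not tested.

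Side by side against the shared WT libraries, 220 genes (1.64%) passed in untreated LEGSKO and 742 in LEGSKO+BSO. Without WT Fibers 1 the counts were 591 and 1075. LEGSKO libraries held 22.41 to 25.54 M counts, fewer than LEGSKO+BSO libraries. For Mt1, Cabp5 and Trf the log2 changes were 3.90, 2.32 and 1.71 in untreated knockout fibers, beside 4.04, 2.65 and 1.82 in LEGSKO+BSO. For Insig1, Msmo1 and Abca1 they were -0.37, -0.55 and 0.66 in LEGSKO, where none passed, and -0.76, -0.94 and 1.40 in LEGSKO+BSO. The direct tests of LEGSKO+BSO against LEGSKO gave adjusted p = 0.249, 0.383 and 0.344 for these 3 genes, so a difference between treated and untreated knockouts was not shown. Gdf10 was 0.045 in LEGSKO and -1.15 in LEGSKO+BSO, with adjusted p = 0.135 for the direct difference.

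The response of fibers was set against that of epithelia by testing the difference of the 2 responses over all 24 libraries. Of 15560 genes tested, 43 differed (0.276%), 25 with a higher log2 change in fibers and 18 with a lower one, 2121 had an unadjusted p below 0.05, and DESeq2 called 293. Leaving out WT Fibers 1 gave 94 (0.596%). Cabp5 was at 2.81, 1.28, 1.99 and 1.30 CPM in WT epithelia and 2.22, 3.62, 4.29 and 2.15 CPM in LEGSKO+BSO epithelia, so its rise was greater in fibers (difference 1.959 ± 0.38 on the log2 scale, adjusted p = 0.0289). Mgat5b, a glycosyltransferase, rose in fibers from 12.8, 10.7, 13.7 and 12.4 to 22.8, 18.9, 23.3 and 22.2 CPM and was at 4.21, 5.82, 5.91 and 6.38 CPM in WT and 3.72, 3.97, 3.28 and 2.32 CPM in LEGSKO+BSO epithelia (difference 1.59 ± 0.21, adjusted p = 4.49e-04). The dopamine receptor gene Drd4 rose in fibers from 7.95, 8.35, 12.1 and 10.2 to 19.3, 19.4, 19.3 and 18.4 CPM, while its epithelial levels were 3.49, 6.07, 7.22 and 6.60 CPM in WT and 3.57, 5.33, 3.94 and 2.41 CPM in LEGSKO+BSO (difference 1.64 ± 0.36, adjusted p = 0.0461). Aldh1a1 also rose more in fibers (difference 1.03 ± 0.18, adjusted p = 0.0111). Its epithelial levels were 2280, 1900, 1973 and 1947 CPM in WT and 2506, 2058, 2408 and 2278 CPM in LEGSKO+BSO. The differences for Mgat5b and Aldh1a1 passed in all 16 fits that each left out 1 library. That for Cabp5 was lost in 6, without LEGSKO+BSO Fibers 1 or 4, WT Epithelia 1 or 3 or LEGSKO+BSO Epithelia 1 or 4 (adjusted p up to 0.0766). That for Drd4 passed in only 4, without WT Fibers 1 or 3, WT Epithelia 1 or LEGSKO+BSO Epithelia 2 (up to 0.0909 in the others).

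Among the named genes with a lower log2 change in fibers, Tacr3, a neurokinin receptor, had the largest difference. In fibers it was nearly absent, at 0.111, 0.347, 0.450 and 0.136 CPM in WT and 0.368, 0.331, 0.0894 and 0.417 CPM in LEGSKO+BSO. Its change there did not pass (log2 0.16, adjusted p = 0.902). In epithelia it was at 0.291, 0.148, 0 and 0.130 CPM in WT and 22.2, 17.0, 16.2 and 22.0 CPM in LEGSKO+BSO (difference -6.93 ± 0.75). Tacr3 entered the test through its epithelial levels, so no fall in fibers is read from the difference and its p-value is not given as support. Trim34a was below the count filter in fibers, at 0.111, 0.284, 0.450 and 0.306 CPM in WT and 0.0460, 0.0414, 0.0223 and 0.0926 CPM in LEGSKO+BSO, so no response is read from it there. It entered the test through its epithelial levels of 12.7, 16.8, 12.03 and 17.6 CPM in WT and 11.2, 14.1, 10.7 and 11.7 CPM in LEGSKO+BSO. Adcy1, an adenylate cyclase, fell in fibers. It was at 27.1, 25.6, 17.3 and 19.7 CPM in WT and 9.20, 14.0, 7.51 and 12.6 CPM in LEGSKO+BSO fibers (log2 change -1.05 ± 0.19 SE, adjusted p = 0.00578), and at 102, 115, 149.5 and 118 CPM in WT and 179.5, 146, 177 and 177 CPM in LEGSKO+BSO epithelia (difference -1.53 ± 0.24, adjusted p = 0.00452). Hspa5 fell in fibers and was at 427, 424, 431 and 491 CPM in WT and 504, 461, 492 and 536 CPM in LEGSKO+BSO epithelia (difference -0.65 ± 0.14, adjusted p = 0.0461). Without WT Fibers 1 that difference no longer passed (-0.50, adjusted p = 0.0502). It was also lost without LEGSKO+BSO Fibers 1, 2 or 4, WT Epithelia 1, 2 or 3 or LEGSKO+BSO Epithelia 1, 3 or 4 (up to 0.0909). The difference for Adcy1 passed in all 16 fits that left out 1 library. The change of Mt1 was not shown to differ between the tissues (difference 1.27 ± 0.38, adjusted p = 0.133).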

How the data were processed

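The file held raw read counts per gene in whole numbers, with 1 column per library, as deposited by the authors. The submitters' processing notes name CASAVA 1.8, bcl2fastq, TopHat, DESeq and the mouse build mm10, which is GRCm38, without their roles, and the sources used here do not give strand and multi-mapping settings. Of 24415 gene identifiers, 24334 matched a symbol in the RefSeq table of GRCm38.p6, the unmatched held 1.1007% of fiber counts, and genes of the mitochondrial genome were not analysed here.

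The 12 fiber libraries, in 3 groups of 4, were fitted together with edgeR 4.0.16 in R 4.3.3, with TMM scaling, genes kept by filterByExpr (minimum count 10, minimum total 15) and the quasi-likelihood F test. P-values were two-sided and adjusted by Benjamini-Hochberg over all genes tested, with a threshold of 0.05. All 24 libraries in 6 groups were fitted for the difference between tissues. CPM was computed on TMM-scaled totals within a tissue, and each standard error (SE) from the fold change and F statistic. The biological coefficient of variation was 12.8% in fibers. On simulated data for LEGSKO+BSO against WT fibers with 13354 genes, 73.1% of 67 genes changed 1.5-fold, 89.6% of 67 changed 2-fold and all 66 changed 4-fold were recovered, with 14 false calls.

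Named genes were Gclc, Gclm and Gss, the 10 highest and 10 lowest called fold changes with an average of at least 1 log2 CPM and no overlap, up to 2 called genes per pathway list by smallest adjusted p, and the 3 highest and 3 lowest tissue differences. Other called members of the 26 pathway lists are given more briefly, and some called genes are not reported here. The members and lists were chosen with earlier results of these data known. Sterol and endoplasmic reticulum stress motifs, histone genes and single immune genes were chosen after their values were seen. Alternatives were DESeq2 1.42.0, its size factors, scaling without crystallins, other count filters, a robust prior, only the groups compared, thinned counts, a replicate block and leaving out each library. No 2 libraries were duplicates: replicate counts differed by 6.94 to 369 times the sampling noise (chi-square per degree of freedom).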

Additional observations from a re-analysis of the deposited data

Results flagged for a closer look

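Single libraries were flagged as outliers beside the other 3 of their group in 14 of 122 groups of values checked, and 10 of the 14 were WT Fibers 1. The groups share libraries and most genes were chosen by their call, so no chance rate is set beside this count. The crystallin share of WT Fibers 1 was known to stand apart before the check. That library was the highest of WT for Gclc (135.2 CPM), Ermap (54.1 CPM), Aldh1a3 (23.35 CPM), Dgat2 (16.07 CPM), Galnt12 (32.41 CPM), Gp2 (20.57 CPM), Txnip (16.35 CPM), Caprin2 (245.3 CPM) and Hspa5 (421.7 CPM), and for the crystallin share (50.12%). WT Fibers 4 was the lowest of WT for Gpx1 (66.88 CPM, beside 69.2, 69.2 and 68.9 CPM), a small gap among nearly level libraries. WT Fibers 3 was the lowest for Tcf7l1 (5.959 CPM). LEGSKO+BSO Fibers 4 was the highest of its group for Ccnd1 (93.29 CPM) and the lowest for Drd4 (18.41 CPM, beside 19.3, 19.4 and 19.3 CPM, again a small gap).

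The change from WT to LEGSKO+BSO differed between fibers and epithelia for 10 of the named genes, tested as the difference of the log2 changes. It was higher in fibers for Glcci1 (1.468, adjusted p = 0.0239), Cabp5 (1.959), Aldh1a1 (1.034), Tcf7l1 (0.5878, adjusted p = 0.0438), Mgat5b (1.589) and Drd4 (1.643). It was lower in fibers for Hspa5 (-0.6457) and Adcy1 (-1.529). Tacr3 (-6.925) passed through its levels in epithelia, and no fall in fibers is read from it. Trim34a (-2.20) passed too, but it was below the count filter in fibers, so no response is read from it there. Its difference was lost in 12 of 16 fits that left out 1 library (adjusted p up to 0.0898). Without WT Fibers 1 the difference for Hspa5 was -0.50 (adjusted p = 0.0502), and the 9 others passed again. With single libraries left out, Glcci1 was lost without LEGSKO+BSO Fibers 1 or LEGSKO+BSO Epithelia 3 (adjusted p up to 0.0569) and Tcf7l1 in 11 of 16 fits (up to 0.0898), passing without WT Fibers 1, LEGSKO+BSO Fibers 2, WT Epithelia 1 or 4 or LEGSKO+BSO Epithelia 2.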

How the results depend on the processing

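The count of 742 genes was within 1.5 times of this value with DESeq2 size factors, scaling without crystallins, no count filter, a minimum count of 30, a robust prior, thinned counts and the replicate block. It was 417 when only the 8 libraries compared were fitted and 1172 with DESeq2, and 285 to 1075 when single libraries were left out, the lowest without LEGSKO+BSO Fibers 3 and the highest without WT Fibers 1. For LEGSKO+BSO against LEGSKO the 4 genes became 14 without the count filter, 1 at a minimum count of 30, 2 with thinned counts, 56 with only these groups and 80 with DESeq2, and 1 to 7 when single libraries were left out. For LEGSKO against WT the 220 genes became 85 with only these groups and 514 with DESeq2, and 61 to 591 with single libraries left out, the lowest without LEGSKO Fibers 3 and the highest without WT Fibers 1. The 43 genes that differed between tissues became 12 with only the groups compared, 19 with thinned counts and 293 with DESeq2, and 12 to 94 with single libraries left out. These counts moved by more than 1.5 times without each of the libraries concerned, except WT Fibers 1, 3 and 4 and LEGSKO+BSO Fibers 2 for LEGSKO+BSO against WT, LEGSKO Fibers 1 for LEGSKO against WT, and WT Fibers 2, 3 and 4, LEGSKO+BSO Fibers 2 and WT Epithelia 1 for the tissues. The cause of these differences was not tested.

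The difference in crystallin share was 1.093 percentage points without WT Fibers 1 and -6.422 to -3.967 when other single libraries were left out. Of the 59 named genes called, 46 passed with only the groups compared and 42 without LEGSKO+BSO Fibers 4, the lowest number under any alternative. Sign changes occurred only for genes that were not called. Gss had a log2 change of 0.002472 with scaling without crystallins and 0.007186 without the count filter. With single libraries left out, Gss ranged from -0.0512 to 0.04006, Gclc from -0.3217 to 0.04184, Tacr3 from -0.06878 to 0.5217, Mt2 from -0.7606 to 0.5349 and Slc7a11 from -0.1329 to 0.01115.

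Replicate numbers in the labels did not meet the rule for pairing, a correlation over 0.1 in every pair. The deviations of same-numbered WT and LEGSKO+BSO libraries correlated at 0.00603 to 0.182, and 4 of the 8 libraries correlated best with their own number. Between fibers and epithelia the same numbers correlated at 0.08 to 0.228 in LEGSKO+BSO, where every library correlated best with its own number, and at 0.0692 to 0.392 in WT. With the number as a replicate block, the counts were 551 genes for LEGSKO+BSO against WT, 2 against LEGSKO, 143 for LEGSKO against WT and 35 for the difference between tissues. This block joined the same number over all groups of a fit, so a pairing of fibers and epithelia within a condition was not modelled. Genes at a few counts, such as Abcg1, Slc14a1, Ccr2 and Ncf4, are limited by depth.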

Other observations

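Histone genes, which no list covered and which were chosen after their values were seen, gave only higher calls. Of 59 histone genes tested, 19 were called, beside 3.05% of all genes called higher, and all were higher in LEGSKO+BSO: 4 of 5 H1 genes, which encode linker histones, 11 of 15 H2B genes and 4 of 12 H3 genes. None of 16 H2A and none of 11 H4 genes passed, with median log2 changes of 0.33 and 0.34. Without WT Fibers 1, 15 of the H2A and 5 of the H4 genes passed. The median over all 59 was 0.33, and in the same fit without that library it was 0.50 and 42 passed. Of the 59 histone genes, 49 lie on chromosome 13, where 54 of 535 genes tested were called (10.1%), 16 of them histone genes. Reads of near-identical copies cannot be assigned with certainty: 10 of the 16 H2A genes were within 2% of another H2A gene in all 8 libraries.

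The next genes lie outside the lists and were chosen by their small adjusted p, after their values were seen. Rap1b, a small GTPase of cell adhesion, was at 52.4, 49.9, 47.4 and 49.5 CPM in WT and 75.5, 71.3, 75.5 and 78.5 CPM in LEGSKO+BSO (log2 change 0.60 ± 0.060 SE, adjusted p = 1.21e-04). Every treated library was higher. Wsb1, a substrate receptor of a ubiquitin ligase, was at 53.7, 45.5, 39.7 and 42.5 CPM in WT and 21.9, 26.3, 21.3 and 24.6 CPM in LEGSKO+BSO (log2 change -0.94 ± 0.098 SE, adjusted p = 1.46e-04). Manba, a lysosomal mannosidase, was at 7.01, 9.61, 7.12 and 8.90 CPM in WT and 16.6, 19.7, 17.1 and 17.6 CPM in LEGSKO+BSO (log2 change 1.11 ± 0.100 SE, adjusted p = 3.92e-05), and the change differed from that in epithelia by 1.502 (adjusted p = 1.60e-05). Its epithelial levels were 32.0, 28.7, 33.4 and 29.4 CPM in WT and 22.4, 22.5, 21.6 and 27.7 CPM in LEGSKO+BSO. The guidance ligand Sema3a (log2 0.76 ± 0.084, adjusted p = 2.30e-04), the GDNF receptor Gfra1 (log2 1.03 ± 0.11, adjusted p = 2.30e-04) and Pygl, liver glycogen phosphorylase (log2 0.89 ± 0.098, adjusted p = 2.30e-04), rose, and Spata7, a cilium protein (log2 -0.57 ± 0.072, adjusted p = 6.17e-04), fell. Pdhx, the E3-binding component of the pyruvate dehydrogenase complex, was at 19.96, 27.5, 34.2 and 29.0 CPM in WT and 59.4, 56.8, 53.9 and 59.5 CPM in LEGSKO+BSO (log2 change 1.05 ± 0.12 SE, adjusted p = 2.37e-04). These genes kept their calls whichever library was left out.

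Other genes known from immune cells, chosen after their values were seen, were also counted at low levels. Pirb, a receptor of myeloid cells, was at 0.736, 0.435, 0.402 and 0.649 CPM in LEGSKO+BSO Fibers 1 to 4, and F13a1, a coagulation factor subunit of macrophages, at 0.598, 0.435, 0.581 and 0.394 CPM. Both were at 0 in all 4 WT libraries. In LEGSKO Fibers 1 to 4 Pirb was at 0.155, 0, 0.0397 and 0 CPM, and F13a1 was at 0. Both passed the count filter through the LEGSKO+BSO libraries alone, which were also the deepest, so their calls are not given as support. Edaradd, an adaptor of ectodysplasin signalling, was at 10.95, 2.80, 2.96 and 3.36 CPM in WT and 19.6, 9.17, 17.0 and 14.2 CPM in LEGSKO+BSO, so that WT Fibers 1 overlapped the treated libraries. Its fold change was 3.16 with all libraries (adjusted p = 0.0162) and 4.91 without WT Fibers 1, and the call was lost without LEGSKO+BSO Fibers 1 (adjusted p up to 0.0526).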
